A study of Homo sapiens with 24 samples.

Results

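Transcripts of 10 genes of the TGF-beta and activin pathway were followed in SAS, a human cell line of oral squamous carcinoma. The genes were taken by name and comprised the ligand genes TGFB1, TGFB2 and INHBA, the matrix gene LTBP2 of the latent TGF-beta binding protein family, the receptor genes TGFBR1 and TGFBR2, the signal carrier SMAD3, the inhibitors SMAD7 and SKIL, and the matrix gene TGFBI. All 10 were found among the 58735 genes of the count table, and all 10 were among the 15956 genes with enough counts to test. RNA was sequenced in 24 libraries that formed 8 groups of 3.

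The cells carried the transcription factor NRF2 either as wild type (WT) or with the E79Q substitution, a change in the stretch of NRF2 that its repressor KEAP1 binds. Each genotype was studied untreated, with the glutaminase inhibitor CB-839, after X-ray radiation, and after radiation in the presence of the drug. CB-839 was given at 0.1 µM for 24 h ahead of radiation, cells without drug received vehicle, the dose was 4 Gy, and RNA was taken 24 h after it. All 8 groups shared the same line and the same serum-containing medium. How the E79Q cells were made, and whether they are 1 clone or a pool, is not given in the labels, nor is it stated whether the drug stayed on after radiation. Nothing in the labels says that the 3 libraries of a group came from different cultures, and the p-values therefore measure only the spread between these libraries, which may be technical. The series text describes only the 12 irradiated samples, and whether the 12 others were handled with them is not stated, so radiation and such a batch cannot be told apart.

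TGF-beta ligands are secreted in a latent form that is held in the extracellular matrix by latent TGF-beta binding proteins, and once freed they join the receptors TGFBR2 and TGFBR1, which phosphorylate SMAD2 and SMAD3. Activin A, a dimer of the INHBA product, reaches the same SMADs through its own receptors. SMAD7 blocks the receptors and SKIL holds SMAD complexes inactive, and both genes are themselves switched on by the pathway. In squamous epithelium the pathway is known for restraining growth and, in carcinomas, for matrix production and invasion.

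Total counts ran from 14285084 to 23640197 per library, and the 10 genes had between 359 and 45025 counts in any library. Levels are given as CPM, counts scaled to a common library size, and levels of different genes are compared only as CPM per kb of transcript. Replicate 2 of the irradiated E79Q cells with CB-839 stood apart from its group: its deviation from the group mean correlated with GC content across genes (r = 0.479), and the count difference of replicate pairs that hold it was 22.1 and 32.3 chi-square units per degree of freedom, against 2.25 to 9.51 in the other pairs. For named genes, values called in comparisons with this group are also given without that library. NQO1, a target of NRF2, was higher in E79Q cells in all 4 treatments, by 0.73 on the log2 scale in untreated cells (adjusted p = 2.36e-09). The keratin and adhesion genes that mark squamous epithelium were present in every library (KRT5 at 662 to 1490 CPM). Among the leukocyte markers, PTPRC was at 0 in 22 libraries and CD3E in 23. CD68 and ITGAM were at 0 in 2 and 5 libraries and reached at most 0.294 and 0.687 CPM. All 8 squamous markers were lower in untreated E79Q than in untreated WT cells, with a summed level of 1820 to 1910 against 2970 to 2990 CPM, and with CB-839, after radiation and after both, 6, 8 and 5 of the 8 were lower. In bulk RNA, fewer cells of a type and less RNA per cell cannot be told apart, and the part of this difference in the genotype results below was not tested.

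On GRCh38, TGFB1 (ENSG00000105329) lies on chromosome 19 at 41301587 to 41353911, TGFB2 (ENSG00000092969) on chromosome 1 at 218346235 to 218444619, and INHBA (ENSG00000122641) on chromosome 7 at 41667168 to 41705834. LTBP2 (ENSG00000119681) lies on chromosome 14 at 74498170 to 74612378, TGFBR1 (ENSG00000106799) on chromosome 9 at 99104038 to 99154192, and TGFBR2 (ENSG00000163513) on chromosome 3 at 30606502 to 30694142. SMAD3 (ENSG00000166949) lies on chromosome 15 at 67063763 to 67195195, SMAD7 (ENSG00000101665) on chromosome 18 at 48919853 to 48952052, SKIL (ENSG00000136603) on chromosome 3 at 170357678 to 170396835, and TGFBI (ENSG00000120708) on chromosome 5 at 136028895 to 136063818. All 10 are annotated as protein coding, and a count covers the whole gene without separating transcripts.

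Per kb, TGFBI was the most abundant of the 10, with a median of 216 CPM per kb over the 24 libraries. Its mean CPM per kb lay above that of 99.1% of the tested genes. TGFBR2 (43.64 CPM per kb) and TGFB1 (41.96) followed, and LTBP2 (5.565), SMAD7 (6.102) and TGFBR1 (6.521) were the least abundant. The spread across groups had a different order. The highest group mean was 3.15 times the lowest for INHBA, 2.77 times for LTBP2 and 2.18 times for TGFB2, 1.65 times for SMAD7, and between 1.21 times (TGFBR1) and 1.4 times (TGFBR2) for the other 6.

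INHBA, which encodes the subunit of activin A, rose with radiation in both genotypes and with CB-839 in E79Q cells. In WT cells it stood at 66.2, 72.0 and 71.8 CPM untreated, at 74.8, 72.5 and 65.5 CPM with CB-839, at 142, 138 and 146 CPM after radiation, and at 131, 159 and 145 CPM after both. In E79Q cells it stood at 90.8, 92.0 and 95.1 CPM untreated, at 179, 180.2 and 178 CPM with CB-839, at 226, 214 and 221 CPM after radiation, and at 258, 165 and 238 CPM after both. In WT cells radiation alone divided the groups, and CB-839 left the libraries overlapping with their vehicle controls. The 3 treated E79Q groups were at the top, where the cells with both treatments overlapped with the irradiated ones and with those on drug, the irradiated WT groups came next, and untreated E79Q cells stood between those and the 2 unirradiated WT groups without overlap. Radiation raised INHBA 2.03-fold in WT cells without drug (log2 fold change 1.02 ± 0.0999 SE, adjusted p = 1.57e-08) and 2.38-fold in E79Q cells without drug (1.25 ± 0.0985, adjusted p = 2.87e-10). CB-839 raised it 1.94-fold in unirradiated E79Q cells (0.95 ± 0.0987, adjusted p = 5.84e-08), whereas the value in unirradiated WT cells was 0.02 ± 0.101 (adjusted p = 0.934). The difference between those drug effects was 0.93 ± 0.141 (adjusted p = 3.53e-05). E79Q exceeded WT cells in every treatment, by 0.40 untreated, 1.34 with CB-839, 0.64 after radiation and 0.60 after both on the log2 scale. The E79Q cells that received both treatments held the outlying library, at 165 CPM. With it, radiation raised INHBA by 0.30 in the presence of drug (adjusted p = 0.0215) and the CB-839 value in irradiated cells was -0.0039 (adjusted p = 0.983). Without it, the same values were 0.47 (adjusted p = 3.98e-07) and 0.18 (adjusted p = 0.0358), and the excess over WT cells was 0.77 (adjusted p = 9.01e-12). The call of the 0.30 rise was lost when 1 of 4 other libraries was left out (replicates 2 and 3 of E79Q cells with CB-839, replicates 1 and 3 with both treatments), with adjusted p from 0.0506 to 0.145.

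TGFB2 fell with CB-839 in all 4 settings and was lowest where E79Q, drug and radiation met. In WT cells it stood at 85.3, 83.9 and 83.2 CPM untreated, at 69.6, 66.0 and 62.5 CPM with CB-839, at 77.1, 75.5 and 75.0 CPM after radiation, and at 52.5, 50.9 and 58.4 CPM after both. The E79Q libraries stood at 67.6, 75.7 and 70.7 CPM untreated, at 45.9, 54.4 and 51.3 CPM with CB-839, at 66.7, 71.1 and 68.0 CPM after radiation, and at 43.9, 33.0 and 39.1 CPM after both. Untreated WT cells lay above every other group without overlap, and E79Q cells with both treatments lay below every other group. The next 4 groups in order overlapped with their neighbours among themselves, and WT cells with CB-839, the lowest of these, lay above the remaining groups without overlap. CB-839 lowered TGFB2 by -0.35 ± 0.0774 in unirradiated WT cells (log2 fold change ± SE, adjusted p = 0.00209), by -0.49 ± 0.0779 in irradiated WT cells (adjusted p = 0.000143), by -0.50 ± 0.0792 in unirradiated E79Q cells (adjusted p = 4.14e-05) and by -0.83 ± 0.0796 in irradiated E79Q cells (adjusted p = 1.82e-08), the last a 1.78-fold fall. The drug effects of the genotypes did not pass the test of their difference, unirradiated (-0.15, adjusted p = 0.439) or irradiated (-0.34, adjusted p = 0.13). Without drug, the radiation values were -0.15 in WT (adjusted p = 0.197) and -0.06 in E79Q cells (adjusted p = 0.66), and with drug TGFB2 fell by 0.29 in WT (adjusted p = 0.00726) and by 0.39 in E79Q cells (adjusted p = 0.00075). E79Q cells held less TGFB2 than WT cells untreated (-0.24, adjusted p = 0.0279), with drug (-0.38, adjusted p = 0.000968) and with both treatments (-0.48, adjusted p = 0.000157). The untreated call was lost without any 1 of 5 libraries (adjusted p 0.0555 to 0.12; all 3 WT replicates and E79Q replicates 1 and 3), and the fall with radiation in WT cells with drug was lost without replicate 1 of WT cells with CB-839 (-0.25, adjusted p = 0.0513). Without the outlying library, the irradiated E79Q cells with drug still showed the drug effect (-0.72, adjusted p = 3.28e-09), the radiation effect (-0.29, adjusted p = 0.00543) and the genotype difference (-0.39, adjusted p = 0.000322).

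TGFB1, the ligand gene with the highest level per kb of the 3, varied least among the ligands, and each of its groups overlapped with the next in order. Its group means ran from 119 ± 4.41 CPM (SD, n = 3) in WT cells with CB-839 to 149.7 ± 14.1 CPM in E79Q cells with both treatments, against 137 ± 2.07 CPM in untreated WT and 142 ± 14.0 CPM in untreated E79Q cells. The libraries of WT cells with CB-839 stood at 123, 114 and 120.1 CPM, and those of WT cells with both treatments at 146, 127 and 139.8 CPM. This difference, 0.21 ± 0.0696 on the log2 scale, was the only one of TGFB1 that passed the test in the 12 pairwise comparisons (adjusted p = 0.0278). It was lost without 1 of 3 libraries, replicate 2 of WT cells with CB-839 or replicates 1 or 3 with both treatments (adjusted p 0.0725 to 0.152). The ratio of TGFB2 to TGFB1, both per kb, went from 0.387 ± 0.00103 (SD, n = 3) in untreated WT cells to 0.165 ± 0.0383 in E79Q cells with both treatments, and stood at 0.247 ± 0.0192 in WT cells with both. The 3 libraries of E79Q cells with both treatments had ratios of 0.203, 0.127 and 0.164, and the lowest is that of the outlying library. All 3 lay below the mean of WT cells with both treatments.

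LTBP2, a matrix glycoprotein of the latent TGF-beta binding protein family that, unlike its relatives, is not known to bind the latent ligand, was higher with each of the 3 factors (E79Q, drug, radiation) alone. In WT cells it stood at 25.2, 21.0 and 21.3 CPM untreated, at 37.5, 38.0 and 38.4 CPM with CB-839, at 49.5, 50.1 and 52.8 CPM after radiation, and at 56.4, 58.3 and 55.0 CPM after both. In E79Q cells it stood at 37.1, 32.2 and 33.1 CPM untreated, at 50.5, 57.0 and 55.1 CPM with CB-839, at 51.3, 50.7 and 56.3 CPM after radiation, and at 63.4, 62.0 and 61.9 CPM after both. Untreated WT cells were lowest, followed by untreated E79Q cells and WT cells with CB-839, each without overlap. E79Q cells with both treatments were highest, and the 4 groups between these ends overlapped with their neighbours. In untreated cells the E79Q value was 1.51-fold the WT value (0.60 ± 0.075 on the log2 scale, adjusted p = 9.39e-07), in WT cells CB-839 raised LTBP2 1.69-fold (0.75 ± 0.0746, adjusted p = 2.73e-08) and radiation 2.25-fold (1.17 ± 0.0735, adjusted p = 3.17e-12). CB-839 raised it by 0.67 in unirradiated E79Q cells, and this did not pass the test of a difference from WT cells (-0.08, adjusted p = 0.668). With drug, E79Q exceeded WT cells by 0.51 (adjusted p = 4.45e-06). Radiation raised LTBP2 by 0.57 in WT cells with drug, 0.60 less than without it (SE 0.101, adjusted p = 0.000493 for the difference). It raised LTBP2 by 0.63 in E79Q cells, 0.54 less than in WT cells (SE 0.102, adjusted p = 0.00376 for the difference). After radiation, E79Q and WT cells differed by 0.05 ± 0.0688 (adjusted p = 0.745), and with both treatments by 0.14 ± 0.0679 (adjusted p = 0.242; without the outlying library 0.14, adjusted p = 0.258). In irradiated E79Q cells CB-839 raised LTBP2 by 0.24 (adjusted p = 0.00941), and by 0.26 without the outlying library (adjusted p = 0.0105). In E79Q cells with drug, radiation added 0.20 (adjusted p = 0.0271). That last call was lost without replicate 1 or replicate 3 of E79Q cells with CB-839 (adjusted p 0.0501 to 0.11), and was kept without the outlying library (0.21, adjusted p = 0.0394).

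**Figure D1:**
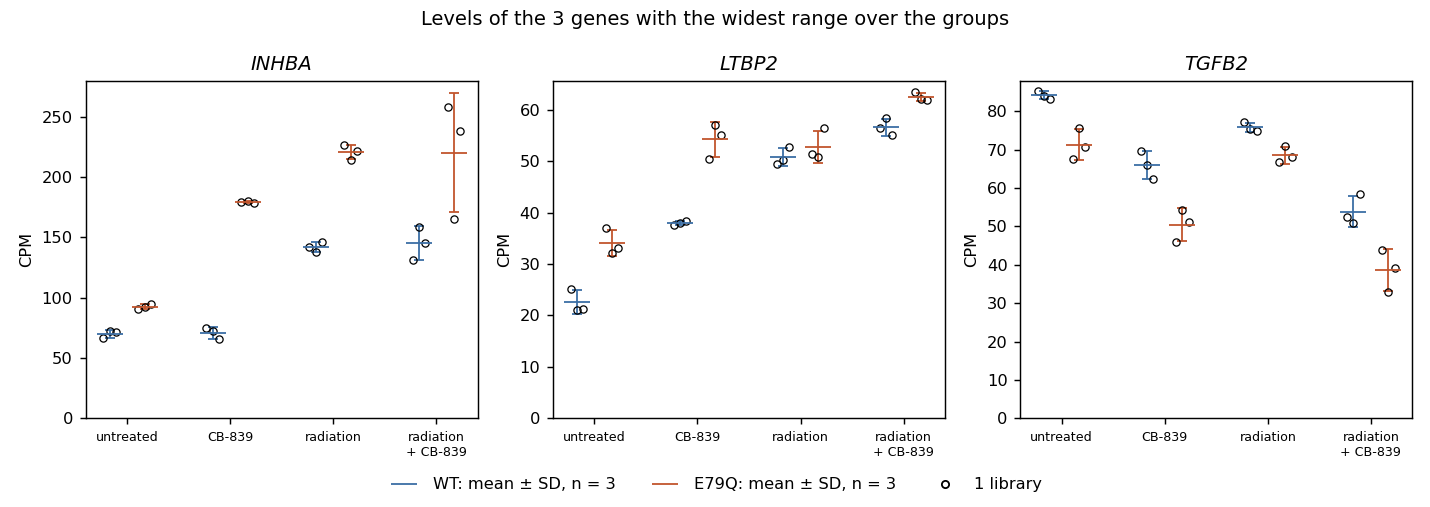
Levels of INHBA, LTBP2 and TGFB2 in CPM (vertical axis) for each library (points), by treatment (horizontal axis) and genotype (colour), with the mean and SD of 3 libraries. INHBA of E79Q cells with CB-839 sits at 178 to 180.2 CPM against 65.5 to 74.8 CPM in WT cells, and TGFB2 reaches its lowest points, 33.0 to 43.9 CPM, in E79Q cells with both treatments.

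Sequences upstream of the RefSeq start site (GRCh38.p14), cut where an annotated exon of the same gene begins, are shown for these 3 genes, because their levels moved most, and for SKIL, because its window held matches to 2 of the motifs searched. Each is written 5′ to 3′ on the strand of its gene, in lower case with motif matches in capitals. TGFB2 is from chr1:218345086-218345335 (plus strand), INHBA from chr7:41703109-41703340 (minus strand), LTBP2 from chr14:74612379-74612487 (minus strand) and SKIL from chr3:170357465-170357677 (plus strand). The INHBA stretch lies in an intron of a longer annotated transcript of INHBA.
TGFB2: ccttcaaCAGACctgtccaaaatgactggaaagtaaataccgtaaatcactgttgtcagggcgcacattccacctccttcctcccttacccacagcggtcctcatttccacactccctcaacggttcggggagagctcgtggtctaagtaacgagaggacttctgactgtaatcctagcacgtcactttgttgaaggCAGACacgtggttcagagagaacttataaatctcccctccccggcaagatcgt
INHBA: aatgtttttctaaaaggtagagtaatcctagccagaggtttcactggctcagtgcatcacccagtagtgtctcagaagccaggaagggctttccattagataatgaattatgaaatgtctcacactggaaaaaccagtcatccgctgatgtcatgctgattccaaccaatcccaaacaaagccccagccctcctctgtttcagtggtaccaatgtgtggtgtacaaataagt
LTBP2: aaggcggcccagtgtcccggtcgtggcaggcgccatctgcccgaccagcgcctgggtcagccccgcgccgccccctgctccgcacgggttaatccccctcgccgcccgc
SKIL: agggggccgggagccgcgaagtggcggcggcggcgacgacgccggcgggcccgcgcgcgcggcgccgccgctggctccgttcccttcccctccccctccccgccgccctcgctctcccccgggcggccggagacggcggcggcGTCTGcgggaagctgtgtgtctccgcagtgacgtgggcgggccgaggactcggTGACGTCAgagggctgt

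Both strands of the 250 bases before each RefSeq start of the 10 genes, 24 windows in all, were searched for 6 short motifs, a list that was changed after the windows had been read. The SMAD box CAGAC, written GTCTG on the other strand, occurred in 10 of the 24 windows, from 5 genes (TGFB2, TGFBR1, SMAD3, SMAD7 and SKIL), and in 38% of the 35116 windows of all genes. The SMAD palindrome GTCTAGAC occurred in 0 of the 24 and in 0.182% of all windows. The AP-1 motif TGANTCA was found for SMAD3 (6.57% of all windows), the cyclic AMP response element TGACGTCA for SKIL (1.65%) and the NRF2 core TGACNNNGC for SMAD7 (10.9%), while the ATF4 motif TGATGNAA was found for 0 of the 10 (3.14%). The SMAD box is not contained in the palindrome, whereas the AP-1 motif and the NRF2 core can share bases. A match describes the letters only.

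TGFBR2, the receptor that binds the ligand, was higher after radiation in 3 of 4 settings and higher in E79Q than in WT cells in 3 of 4 treatments, by at most 1.27-fold. In WT cells it stood at 163, 162 and 166 CPM untreated, at 176, 174 and 169 CPM with CB-839, at 198, 201 and 197 CPM after radiation, and at 209, 221 and 219 CPM after both. The E79Q libraries stood at 193, 181 and 199 CPM untreated, at 218, 222 and 218 CPM with CB-839, at 219, 215 and 233 CPM after radiation, and at 241, 213 and 234 CPM after both. The unirradiated WT groups were the lowest, and the 3 treated E79Q groups and WT cells with both treatments overlapped at the top. Radiation raised TGFBR2 by 0.28 ± 0.0499 in WT cells without drug (log2 fold change ± SE, adjusted p = 0.000167), by 0.32 ± 0.0498 in WT cells with drug (adjusted p = 2.26e-05) and by 0.22 ± 0.0497 in E79Q cells without drug (adjusted p = 0.00187), and the value in E79Q cells with drug was 0.06 ± 0.0496 (adjusted p = 0.351; without the outlying library 0.12, adjusted p = 0.0895). E79Q exceeded WT cells by 0.22 untreated (adjusted p = 0.00182) and by 0.34 with CB-839 (adjusted p = 1.12e-05). The excess after radiation, 0.16 (adjusted p = 0.0386), was lost without any 1 of the 6 libraries compared (adjusted p 0.0548 to 0.259). With both treatments the genotypes differed by 0.08 (adjusted p = 0.37; without the outlying library 0.13, adjusted p = 0.103). CB-839 raised it in unirradiated E79Q cells by 0.20 (adjusted p = 0.0052), a call lost without replicate 2 of untreated E79Q cells (0.15, adjusted p = 0.0555).

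TGFBR1, the receptor kinase that TGFBR2 activates, had the narrowest range, with group means from 40.7 ± 4.03 CPM (SD, n = 3) in untreated E79Q cells to 49.2 ± 3.27 CPM in irradiated E79Q cells. These 2 groups were the only pair of the 12 compared in which it passed the test. The untreated libraries stood at 44.8, 40.6 and 36.7 CPM and the irradiated ones at 46.2, 52.7 and 48.9 CPM, a difference of 0.27 ± 0.0905 on the log2 scale (adjusted p = 0.0296). The call was lost without 1 of 4 of these libraries, replicates 2 or 3 of either group (adjusted p 0.0715 to 0.196).

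SMAD3, which carries the signal to the nucleus, was highest in untreated WT cells and lower in all 7 other groups. Untreated WT libraries stood at 242, 227 and 243 CPM, above every other library of the 24, and the lowest were WT cells with CB-839 at 197, 184 and 181 CPM and E79Q cells with CB-839 at 180.2, 194 and 188 CPM. The other 5 group means lay between 195 and 208 CPM, and neighbours among them overlapped. In WT cells SMAD3 fell by 0.34 with CB-839 (SE 0.0461, adjusted p = 4.54e-06) and by 0.19 with radiation (SE 0.046, adjusted p = 0.00399), and untreated E79Q cells stood 0.21 below WT cells (log2 fold change -0.21 ± 0.046, adjusted p = 0.00176). In E79Q cells CB-839 lowered it by -0.14 (adjusted p = 0.0344), a call lost without 1 of 4 of the 6 libraries compared, replicates 1 or 2 untreated or replicates 1 or 3 with drug (adjusted p 0.0565 to 0.122), and radiation left it at -0.01 (adjusted p = 0.923).

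SMAD7, the inhibitor that acts on the receptors, fell with radiation in the absence of CB-839. In WT cells it stood at 31.4, 32.3 and 34.0 CPM untreated, at 35.1, 33.9 and 32.2 CPM with CB-839, at 22.5, 23.0 and 21.5 CPM after radiation, and at 32.2, 27.7 and 31.0 CPM after both. The E79Q libraries stood at 26.6, 27.9 and 27.6 CPM untreated, at 35.0, 31.9 and 34.9 CPM with CB-839, at 18.4, 20.6 and 22.7 CPM after radiation, and at 28.4, 30.5 and 31.0 CPM after both. The 2 groups irradiated without drug overlapped with each other and lay below all 6 others. Radiation without drug lowered SMAD7 by 0.54 in WT cells (log2 fold change -0.54 ± 0.0778, adjusted p = 8.36e-06) and by 0.42 in E79Q cells (-0.42 ± 0.0788, adjusted p = 0.000271). With drug, the radiation values were -0.16 ± 0.0757 in WT (adjusted p = 0.143) and -0.18 ± 0.0762 in E79Q cells (adjusted p = 0.08). Tested directly, the radiation effect with drug minus that without it was 0.39 in WT cells (adjusted p = 0.0403), a call lost without any 1 of 10 libraries. In E79Q cells it was 0.24 and did not pass (adjusted p = 0.138, and 0.192 without the outlying library). CB-839 raised SMAD7 in irradiated cells by 0.44 in WT (adjusted p = 0.000526) and by 0.55 in E79Q cells (adjusted p = 9.32e-06), and in unirradiated E79Q cells by 0.31 (adjusted p = 0.00478). Without the outlying library, the drug effect in irradiated E79Q cells was 0.55 (adjusted p = 1.43e-05) and the radiation value in E79Q cells with drug was -0.19 (adjusted p = 0.125). The lower level of untreated E79Q cells, -0.25 (adjusted p = 0.02), was lost without WT replicate 3 or E79Q replicates 1 or 3 (adjusted p 0.0519 to 0.0942).

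SKIL, which encodes the SMAD corepressor SnoN, was highest in E79Q cells with CB-839, at 90.4, 92.7 and 88.4 CPM. The WT cells with CB-839 stood at 73.7, 68.7 and 63.0 CPM, untreated E79Q cells at 61.8, 70.7 and 63.2 CPM and untreated WT cells at 68.1, 69.8 and 72.4 CPM. The 3 groups other than E79Q cells with CB-839 overlapped. CB-839 raised SKIL in unirradiated E79Q cells by 0.47 ± 0.0997 on the log2 scale (adjusted p = 0.00104), against -0.03 in WT cells (adjusted p = 0.877). The difference of 0.51 passed the test (adjusted p = 0.0149). After radiation SKIL stood at 81.7, 82.4 and 87.0 CPM in WT and at 79.4, 83.3 and 84.0 CPM in E79Q cells. The rise over untreated cells was 0.33 in E79Q cells (adjusted p = 0.0152), a call lost without replicates 1 or 3 of untreated or replicates 2 or 3 of irradiated E79Q cells (adjusted p 0.052 to 0.0744), and the value in WT cells was 0.26 (adjusted p = 0.0752). With both treatments the WT libraries stood at 67.9, 76.7 and 76.2 CPM and the E79Q libraries at 85.7, 53.8 and 74.9 CPM, where 53.8 CPM is the outlying library. In E79Q cells with drug, radiation lowered SKIL by 0.34 (adjusted p = 0.0101), and without that library the value was -0.17 (adjusted p = 0.0766).

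TGFBI, a secreted matrix protein named for its induction by TGF-beta, rose with CB-839 in all 4 settings. Untreated libraries stood at 1469, 1486 and 1487 CPM in WT and at 1463, 1417 and 1459 CPM in E79Q cells. With CB-839 they stood at 1795, 1751 and 1792 CPM in WT and at 1808, 1796 and 1835 CPM in E79Q cells, above all unirradiated vehicle libraries. After radiation the means were 1588 ± 16.0 CPM (SD, n = 3) in WT and 1611 ± 18.9 CPM in E79Q cells, and after both treatments 2010 ± 100 CPM in WT and 1955 ± 130 CPM in E79Q cells. CB-839 raised TGFBI by 0.27 in unirradiated WT cells (SE 0.0416, adjusted p = 4.14e-05), by 0.34 in irradiated WT cells (adjusted p = 4.83e-06), by 0.33 in unirradiated E79Q cells (adjusted p = 1.72e-06) and by 0.28 in irradiated E79Q cells (adjusted p = 1.86e-05). Without the outlying library the last was 0.24 (adjusted p = 3.47e-05). E79Q and WT cells differed by between -0.04 and 0.03 on the log2 scale in the 4 treatments, and none of these passed the test. Radiation added 0.18 in WT cells with drug (adjusted p = 0.00273) and 0.16 in E79Q cells without it (adjusted p = 0.00725), the second lost without replicate 2 of untreated or replicates 1 or 3 of irradiated E79Q cells (adjusted p 0.0546 to 0.0733).

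**Figure D2:**
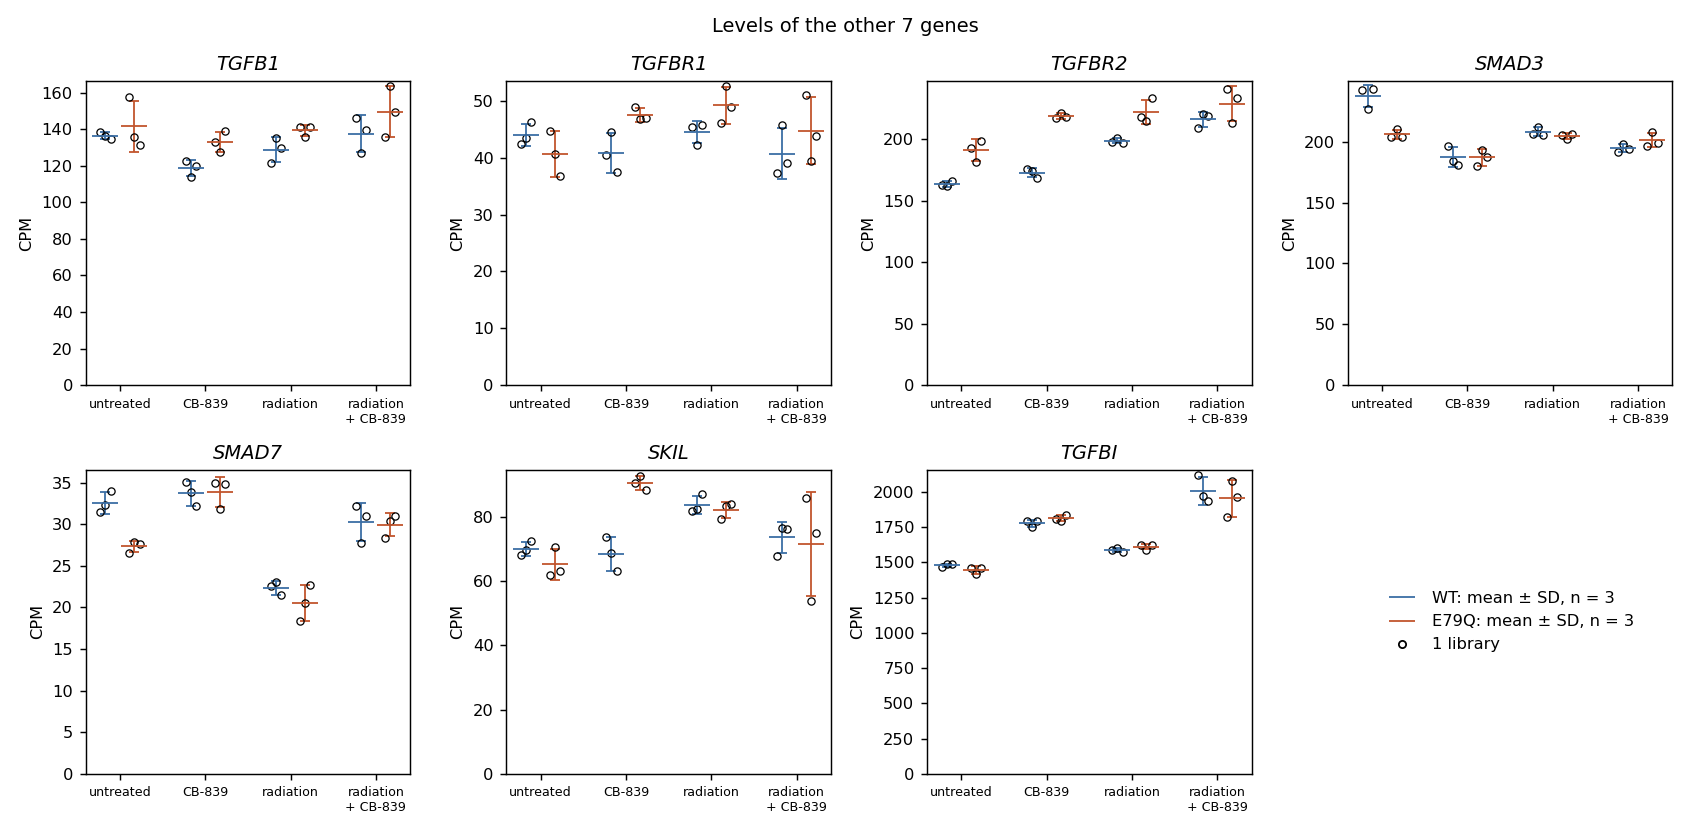
Levels of the other 7 genes in CPM (vertical axes, 1 panel per gene) for each library (points), by treatment (horizontal axis) and genotype (colour), with the mean and SD of 3 libraries. SMAD7 is lowest in the 2 groups irradiated without CB-839 (18.4 to 23.0 CPM), and TGFBI is higher with CB-839 than without it at each radiation dose and in each genotype.

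The genotype comparisons asked how E79Q cells differ from WT cells under the same treatment. In untreated cells 6 of the 10 genes passed the test, LTBP2, INHBA and TGFBR2 higher and TGFB2, SMAD3 and SMAD7 lower, where 19.7% of all tested genes passed, 9.62% higher and 10.1% lower. The median log2 fold change of the 10 was -0.07, against -0.0068 over all genes, so the changes did not share a direction. With CB-839, 5 of 10 passed (INHBA, LTBP2, TGFBR2 and SKIL higher, TGFB2 lower), where 15% of all genes did, 8.3% higher and 6.72% lower. After radiation 2 of 10 passed (INHBA and TGFBR2 higher; 9.64% of all genes, 4.69% higher and 4.95% lower), and after both treatments 2 of 10 (INHBA higher, TGFB2 lower; 7.26% of all genes, 4.4% higher and 2.86% lower). INHBA was thus the gene of the 10 that was higher in E79Q cells in each of the 4 comparisons. With the outlying library left out, INHBA and TGFB2 passed in the comparison after both treatments, as with it. When the 2 groups were fitted alone, with 4 residual degrees of freedom, 0 of 10 passed in that comparison (adjusted p = 0.099 for INHBA and 0.0829 for TGFB2). Over all genes, 234 passed in that fit, against 1159 in the fit of all 8 groups.

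The radiation comparisons asked how irradiated cells differ from unirradiated cells of the same genotype and drug treatment. In WT cells without drug 5 of 10 passed (INHBA, LTBP2 and TGFBR2 higher, SMAD3 and SMAD7 lower; 17.9% of all genes, 9.41% higher and 8.49% lower), and in WT cells with drug 6 of 10 (INHBA, LTBP2, TGFBR2, TGFB1 and TGFBI higher, TGFB2 lower; 23.7%, 13.2% higher and 10.4% lower). In E79Q cells without drug 7 of 10 passed (INHBA, LTBP2, TGFBR1, TGFBR2, SKIL and TGFBI higher, SMAD7 lower; 22.3%, 12.2% higher and 10.1% lower), and in E79Q cells with drug 4 of 10 (INHBA and LTBP2 higher, TGFB2 and SKIL lower; 29.2%, 15.3% higher and 13.9% lower), a count near the background share. INHBA and LTBP2 were the genes that rose in all 4. In E79Q cells with drug, both calls were lost when certain single libraries were left out, as given above. Tested as a difference between genotypes, the radiation effect without drug differed for 1 of 10 genes (LTBP2; 1.26% of all genes, 0.815% higher and 0.445% lower). With drug it differed for 1 of 10 (INHBA; 1.08%, 0.363% higher and 0.714% lower), where radiation raised INHBA by 1.03 in WT and by 0.30 in E79Q cells, a difference of -0.74 ± 0.138 (adjusted p = 0.00438) that was -0.57 without the outlying library (adjusted p = 4.07e-05).

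**Figure D3:**
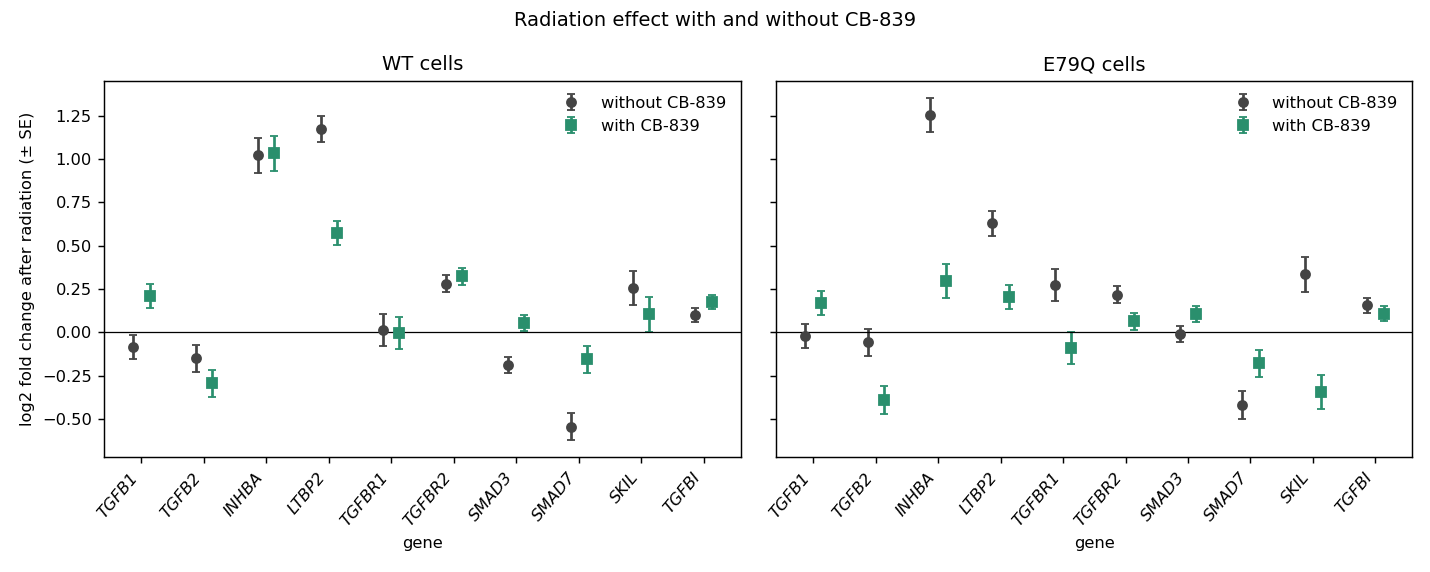
Log2 fold change with radiation (vertical axis) of the 10 genes (horizontal axis) in WT and E79Q cells, without and with CB-839 (points, with bars of 1 SE from the edgeR fit). For INHBA the values are 1.02 and 1.03 in WT cells and 1.25 and 0.30 in E79Q cells, and for LTBP2 they run from 1.17 in WT cells without drug to 0.20 in E79Q cells with drug.

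The drug comparisons asked how cells with CB-839 differ from cells with vehicle. In unirradiated WT cells 4 of 10 genes passed (LTBP2 and TGFBI higher, TGFB2 and SMAD3 lower; 14.8% of all genes, 6.35% higher and 8.44% lower), and in irradiated WT cells 3 of 10 (SMAD7 and TGFBI higher, TGFB2 lower; 9.53%, 4.99% higher and 4.53% lower). In unirradiated E79Q cells 8 of 10 passed, all but TGFB1 and TGFBR1, with INHBA, LTBP2, TGFBR2, SMAD7, SKIL and TGFBI higher and TGFB2 and SMAD3 lower, where 19.8% of all genes passed, 9.44% higher and 10.4% lower. There the median size of the log2 fold change was 0.318 for the 10 genes and 0.193 for all genes. In irradiated E79Q cells 4 of 10 passed (SMAD7, LTBP2 and TGFBI higher, TGFB2 lower; 26%, 12.9% higher and 13.1% lower). A fall of TGFB2 and a rise of TGFBI were common to all 4 comparisons. The drug effect differed between genotypes for 3 of 10 genes in unirradiated cells (INHBA, SKIL and SMAD3; 14.3% of all genes, 7.46% higher and 6.83% lower). For SMAD3 this difference, 0.20 ± 0.0653 (adjusted p = 0.0342), was lost without any 1 of 9 of the 12 libraries (adjusted p 0.0585 to 0.124), all but WT untreated replicate 2, WT replicate 1 with CB-839 and E79Q replicate 1 with CB-839. In irradiated cells 0 of 10 passed at an adjusted p under 0.05 in edgeR (1.91% of all genes did, 1.26% higher and 0.652% lower), and 0 of 10 in DESeq2. At an unadjusted p under 0.05, 1 of the 10 (TGFB2) passed in edgeR.

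Whether radiation acted differently in the presence of the drug was tested within each genotype, as the radiation effect with CB-839 minus that without it. In WT cells 3 of 10 genes passed (4.02% of all genes, 2.75% higher and 1.27% lower): LTBP2 at -0.60, SMAD7 at 0.39 ± 0.109 (adjusted p = 0.0403) and SMAD3 at 0.25 ± 0.0651 (adjusted p = 0.03). The SMAD7 call was lost without any 1 of 10 of the 12 libraries (adjusted p 0.0521 to 0.119), all but replicate 1 with CB-839 and replicate 2 with both treatments. The SMAD3 call was lost without any 1 of 7 (adjusted p 0.0523 to 0.0839), replicates 1 and 3 untreated, 1 and 3 irradiated, 2 and 3 with CB-839 and 2 with both. In E79Q cells 4 of 10 passed (14.5% of all genes, 7.83% higher and 6.66% lower), all lower: INHBA at -0.96 ± 0.137 (adjusted p = 7.12e-05), SKIL at -0.68 ± 0.14 (adjusted p = 0.00399), LTBP2 at -0.43 ± 0.0985 (adjusted p = 0.00817) and TGFB2 at -0.33 ± 0.112 (adjusted p = 0.045). Without the outlying library these were -0.77 (adjusted p = 1.1e-07), -0.49 (adjusted p = 0.000868), -0.41 (adjusted p = 0.0115) and -0.22 (adjusted p = 0.161), and the TGFB2 call was lost without any 1 of 9 of the 12 libraries (adjusted p 0.0701 to 0.161), all but replicate 2 untreated, replicate 1 with CB-839 and replicate 1 with both treatments. For INHBA in WT cells the same test gave 0.01 ± 0.14 (adjusted p = 0.979). In E79Q cells the drug alone and radiation alone each raised INHBA, to 179 and 221 CPM, and the 2 treatments together left it at 220.2 ± 49.0 CPM. All comparisons of a gene use the same 8 groups, and those that share a group share its libraries.

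**Figure D4:**
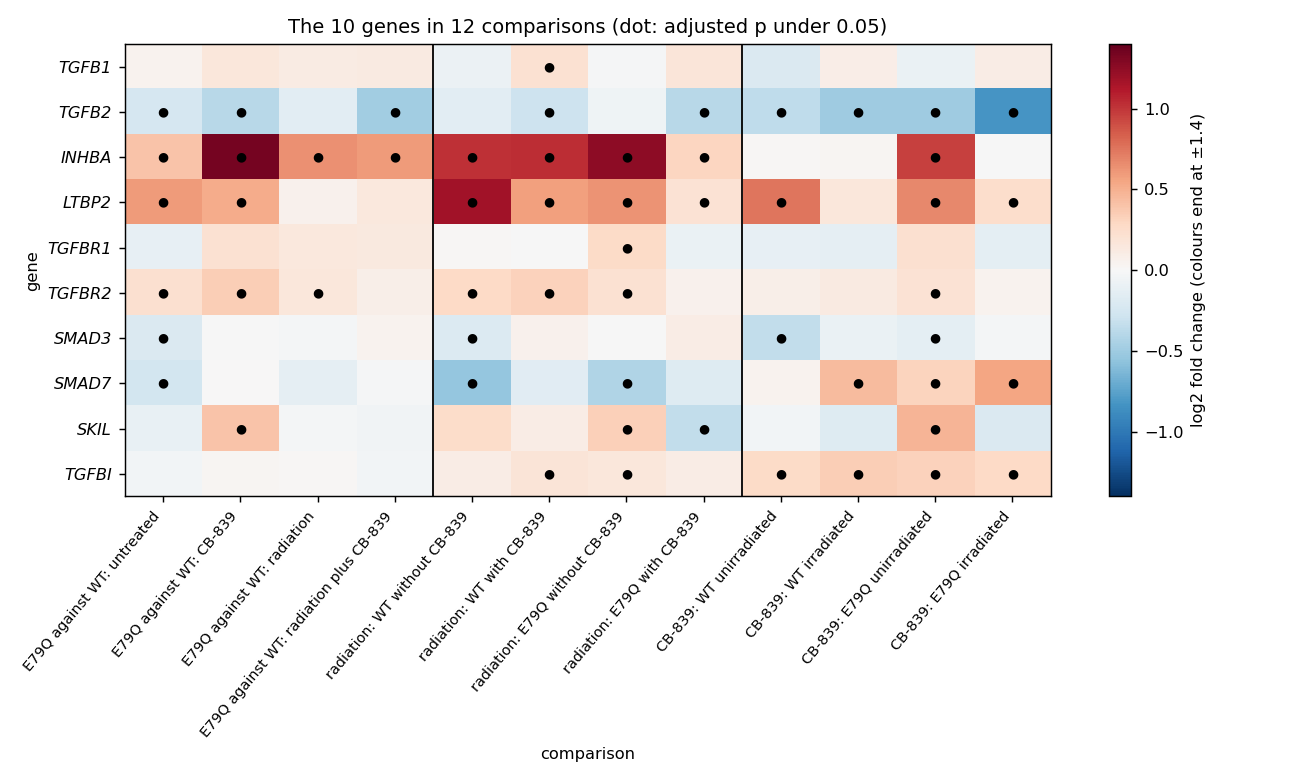
Log2 fold changes of the 10 genes (vertical axis) in the 12 pairwise comparisons (horizontal axis), as colour from lower to higher on a scale that ends at -1.4 and 1.4. A dot marks an adjusted p under 0.05. INHBA is the only gene of the 10 with a dot in all 4 genotype and all 4 radiation comparisons, and TGFB2 and TGFBI have a dot in all 4 drug comparisons.

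Across the 8 group means of log2 CPM, INHBA followed TGFBR2 (Pearson r = 0.963) and LTBP2 (r = 0.868), LTBP2 followed TGFBR2 (r = 0.916), and TGFB2 ran against TGFBI (r = -0.835). The 8 points share libraries between genes, so these are descriptions. Among the 10948 protein coding genes compared, those most like INHBA were BHLHE41 (r = 0.99), PRNP (r = 0.99) and MMP9 (r = 0.982). Those most like LTBP2 were ARHGEF28 (r = 0.988), STX3 (r = 0.987) and ROR1 (r = 0.986), and those most like TGFB2 were DDAH1 (r = 0.982), UACA (r = 0.981) and CBWD6 (r = 0.979).

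Other genes of the pathway were read from 5 lists, and 50 of 53 genes had enough counts to test. Of 21 targets, genes known to be induced by TGF-beta, 16 passed between untreated E79Q and WT cells, 11 of them higher, with a median log2 fold change of 0.341 against -0.0068 over all genes. With CB-839 the targets higher and lower in E79Q cells numbered 12 and 1, after radiation 9 and 4, and after both 9 and 2. Radiation raised 11 and lowered 1 of the 21 in WT cells without drug, and raised 13 and lowered 0 in WT cells with drug, where the median was 0.527. In E79Q cells it raised 13 and lowered 1 without drug and raised 11 and lowered 0 with drug. CB-839 raised 10 and lowered 4 in unirradiated WT cells, raised 11 and lowered 2 in irradiated WT cells, raised 11 and lowered 3 in unirradiated E79Q cells, and raised 10 and lowered 2 in irradiated E79Q cells. Over all genes, 4.4% to 15.3% were higher and 2.86% to 13.9% lower in these 12 comparisons. Without the outlying library, the targets that passed between genotypes after both treatments went from 11 to 9. The collagen gene COL1A1, 1 of the 21, rested on 1 library: replicate 2 of untreated E79Q cells stood at 29.5 CPM and the next highest of the 24 libraries at 7.29 CPM. COL1A2 and COL3A1, which like COL1A1 are on the fibroblast marker list, were also highest there (15.3 and 3.94 CPM). Of the other fibroblast markers, DCN was found only there (0.0588 CPM), and PDGFRA, PDGFRB and LUM were highest in other libraries. The part of these markers in the result was not tested. Without replicate 2 of untreated E79Q cells, COL1A1 went from 1.21 (adjusted p = 0.00851) to 0.15 (adjusted p = 0.561) in untreated E79Q against WT cells. In that setting 15 targets passed, 10 of them higher.

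CTGF, a matrix-associated growth factor gene, differed between the genotypes, at 14.2 CPM in untreated WT against 60.1 CPM in untreated E79Q cells, a log2 fold change of 2.08 ± 0.0682 (adjusted p = 1.82e-18). PMEPA1, a target that restrains the receptors' SMADs, rose with CB-839 by 1.53 in unirradiated WT cells (adjusted p = 1.58e-14) and by 1.70 in unirradiated E79Q cells (adjusted p = 4.66e-16), from 24.3 to 70.2 CPM and from 46.1 to 149.8 CPM. SERPINE2, a secreted protease inhibitor, was 1.37 higher in untreated E79Q than WT cells. FN1, fibronectin, rose with radiation by 1.20 in WT and 1.01 in E79Q cells without drug. Its mean in E79Q against WT cells was 656.1 against 822.5 CPM untreated and 1367 against 1298 CPM with CB-839. It was 1323 against 1889 CPM after radiation and 1966 against 2483 CPM after both treatments. The difference after both was -0.34 on the log2 scale (adjusted p = 6.89e-05), and -0.32 without the outlying library (adjusted p = 4.12e-05). The targets JUNB and BHLHE40 were also lower in untreated E79Q cells (91.4 against 140.9 and 43.0 against 73.9 CPM). TIMP3, an inhibitor of matrix proteases, fell with CB-839. The values without and with radiation were -0.46 and -0.62 in WT cells and -0.98 and -0.70 in E79Q cells. In E79Q cells the radiation effect was smaller with drug than without it for CTGF (-0.74, adjusted p = 2.59e-06) and PMEPA1 (-0.91, adjusted p = 9.49e-07). Without the outlying library, these differences were -0.76 (adjusted p = 1.34e-07) and -0.93 (adjusted p = 2.11e-08). The TIMP3 value with CB-839 in irradiated E79Q cells was then -0.74 (adjusted p = 7.54e-11). With drug, the radiation effect was lower in E79Q than in WT cells for CTGF (-0.59, adjusted p = 0.000166) and PMEPA1 (-0.87, adjusted p = 2.32e-06). Without the outlying library these were -0.63 (adjusted p = 1.4e-05) and -0.92 (adjusted p = 2.49e-08). WT cells also had a smaller radiation effect with drug than without it. In WT cells the CTGF difference was -0.37 (adjusted p = 0.0227), a call lost without any 1 of 7 libraries (adjusted p 0.0569 to 0.0974). With radiation, PMEPA1 in WT cells went from 24.3 to 68.5 CPM without drug and from 70.2 to 134.5 CPM with drug.

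**Figure D5:**
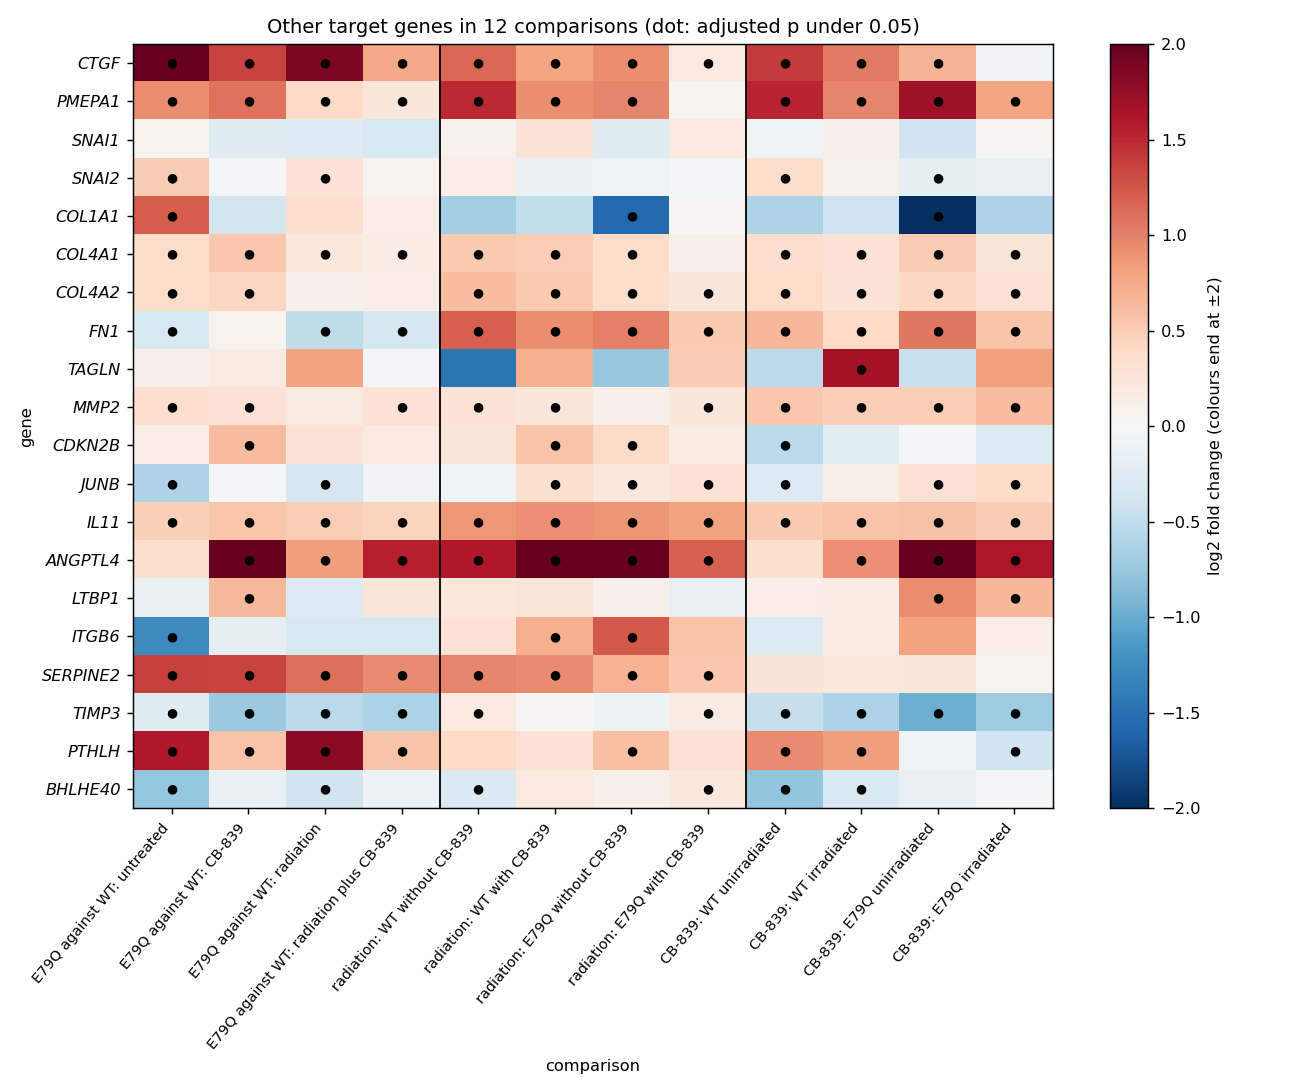
Log2 fold changes of 20 of the 21 other target genes (vertical axis) in the 12 pairwise comparisons (horizontal axis), as colour on a scale that ends at -2 and 2, with a dot for an adjusted p under 0.05. CTGF has a dot for a higher value in the 4 genotype comparisons and PMEPA1 in the 4 drug comparisons, and TIMP3 has a dot for a lower value in the 4 genotype and the 4 drug comparisons.

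Among the 11 tested genes for other ligands and their activation, LTBP3, another latent TGF-beta binding protein, rose with radiation by 0.68 and 0.69 in WT and by 0.62 and 0.49 in E79Q cells without and with drug, and ITGB8, the integrin subunit that takes part in freeing the ligand, fell by -0.53, -0.51, -0.53 and -0.61 in the same order. The ITGB8 call in WT cells with drug was lost without replicate 1 of WT cells with CB-839 (-0.35, adjusted p = 0.0621). THBS1, thrombospondin, an activator of latent TGF-beta, was 0.69 higher in untreated E79Q than WT cells (3788 against 2353 CPM, adjusted p = 8.76e-14). The genotypes differed by 0.19 with CB-839 (adjusted p = 0.000494), by 0.26 after radiation (adjusted p = 8.26e-06) and by 0.03 with both treatments (3600 against 3531 CPM, adjusted p = 0.739; without the outlying library 0.04, adjusted p = 0.636). Without drug, THBS1 rose with radiation by 0.29 in WT cells and fell by 0.13 in E79Q cells, a difference of -0.42 (adjusted p = 1.33e-05). Of the 7 other receptor and co-receptor genes, at most 1 passed in any pairwise comparison, where 7.26% to 29.2% of all genes passed. Among these receptor genes TGFBR3, ENG, ACVR1C and ACVR2A were at low levels, with group means of at most 4.39 CPM. ACVR2B, an activin receptor, fell with radiation by -0.49 in WT cells without drug and by -0.51 and -0.52 in E79Q cells without and with drug. SMAD2 and SMAD4, the partners of SMAD3, passed in none of the 12 pairwise comparisons or the 6 tests of a difference. Of the 11 tested inhibitors, radiation raised 3 to 5 and lowered 1 or 2 in each setting, where 9.41% to 15.3% of all genes rose and 8.49% to 13.9% fell. FST, follistatin, which binds and neutralises activin, fell with radiation by -0.27 and -0.45 in WT cells without and with drug. In E79Q cells it fell by -0.53 and -0.76, without drug from 104 to 71.8 CPM. FSTL3, of the same inhibitor list, went the other way. Its means without drug went from 9.29 to 15.25 CPM in WT and from 8.77 to 13.72 CPM in E79Q cells. With drug they went from 6.02 to 13.3 CPM in WT and from 5.94 to 14.86 ± 1.11 CPM (SD, n = 3) in E79Q cells. FKBP1A, which binds the type I receptors, rose with radiation by 0.37 to 0.44 in the 4 settings, and SMURF2, a ubiquitin ligase that acts with SMAD7, rose by 0.57 in WT and 0.67 in E79Q cells without drug. The radiation values in E79Q cells with drug, without the outlying library, were 0.40 for LTBP3 (adjusted p = 4.95e-06), -0.43 for ITGB8 (adjusted p = 0.00856), -0.44 for ACVR2B (adjusted p = 0.0116), -0.73 for FST (adjusted p = 5.73e-10) and 0.34 for FKBP1A (adjusted p = 7.13e-06). All 5 still passed.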

How the data were processed

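The authors deposited 1 table of raw read counts per gene for 24 libraries, with no normalization; the deposited table also gives other values per gene, a length in bases, used for CPM per kb. The submitters' processing notes name STAR, HTSeq and GRCh38, with no role or order. Versions, annotation and strand setting: not given in the sources used here. The last 3 columns carry a shortened name and were assigned by sample title. The counts went into edgeR 4.0.16 and limma 3.58.1, run under R 4.3.3. filterByExpr, with the 8 groups, kept 15956 of the 34983 genes with any read. TMM gave the scaling, and the model was fitted with 1 mean per group in all 24 libraries (16 residual degrees of freedom, common biological coefficient of variation 7.19%). Adjusted p is from edgeR's quasi-likelihood test with Benjamini-Hochberg adjustment over the 15956 genes within a comparison, called under 0.05; there were 18 comparisons. With 3 libraries against 3 an exact permutation test of 1 gene cannot give a two-sided p below 0.1, so calls rest on the spread shared across genes. SE and log2 fold changes are from that fit.

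The 10 genes, the pathway and marker lists and the motifs were chosen with earlier results of these data known. Beyond the 10, named genes were drawn from those that a rule allowed. From each pathway list it allowed the 2 called genes with the smallest p in each direction of a comparison, with CTGF, PMEPA1, SMAD2 and SMAD4. For the 3 genes with the widest range it allowed the 3 genes of mean log2 CPM of at least 1 with the highest r. Not every gene of the pathway lists that the rule allowed is named, whether higher or lower. A gene that this rule allowed is not reported here by name or value. COL1A2, COL3A1 and the markers are named as checks. Correlations used log2 CPM with a prior count of 2. Promoter windows are RefSeq's (GRCh38.p14). Alternatives were DESeq2 1.42.0, RLE scaling, no filter on low counts, the replicate number as a block, the compared groups alone, and each library left out. Others, chosen after seeing the data, left out the 2 or 4 libraries whose deviations had the most positive correlation with GC content. Replicate 1 of E79Q cells with both treatments (r = -0.38) was not among these and was left out only singly. The fit was tested on simulated data. Replicate numbers did not pair the libraries: across 84 pairs with the same number in different groups, deviations correlated at -0.175 to 0.0871.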

Additional observations from a re-analysis of the deposited data

Results flagged for a closer look

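Of 60 tests of a difference between effects (6 for each of the 10 genes), 12 passed edgeR's quasi-likelihood test at an adjusted p under 0.05. Each is listed because an effect differed between genotypes or between drug settings. Over all genes, the genotype difference of the radiation effect passed for 1.26% without and 1.08% with CB-839. That of the drug effect passed for 14.3% in unirradiated and 1.91% in irradiated cells. Radiation by CB-839 passed for 4.02% in WT and 14.5% in E79Q cells. The radiation effect without CB-839 was lower in E79Q than in WT cells for LTBP2 (-0.54, adjusted p = 0.00376), and with CB-839 it was lower for INHBA (-0.74, adjusted p = 0.00438). The CB-839 effect in unirradiated cells was higher in E79Q than in WT cells for INHBA (0.93, adjusted p = 3.53e-05), SKIL (0.51, adjusted p = 0.0149) and SMAD3 (0.20, adjusted p = 0.0342). The radiation effect in WT cells was higher with CB-839 than without it for SMAD7 (0.39, adjusted p = 0.0403) and SMAD3 (0.25, adjusted p = 0.03), and lower for LTBP2 (-0.60, adjusted p = 0.000493). In E79Q cells it was lower with CB-839 than without it for INHBA (-0.96, adjusted p = 7.12e-05), SKIL (-0.68, adjusted p = 0.00399), LTBP2 (-0.43, adjusted p = 0.00817) and TGFB2 (-0.33, adjusted p = 0.045). The calls of SMAD3, of SMAD7 and of TGFB2 were lost under other settings, as given with each above. With the compared groups alone, the difference of INHBA with CB-839 was -0.73 and its call was lost (adjusted p = 0.107).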

How the results depend on the processing

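Of the 68 effects of the 10 genes that passed in the 18 comparisons, 46 passed under every alternative run. The same count was not made over all genes. The alternatives were DESeq2, RLE scaling, no filter on low counts, the replicate block, the compared groups alone, and each library left out. The last were the 2 or 4 libraries with the most positive correlation with GC content left out. The depth was 359 counts or more for each of the 10 genes in each library, and 3 libraries per group limit the precision. In 1 effect the sign changed and the new value passed the test: INHBA with CB-839 in irradiated E79Q cells went from -0.0039 to 0.18 without replicate 2 of E79Q cells with both treatments (0.1762), to 0.17 without 4 libraries (0.1667) and to 0.18 without 2 (0.1764), and leaving out 1 library gave -0.12 to 0.18.

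The number of the 10 genes that passed moved by more than 1.5 times as follows. With DESeq2, radiation in E79Q cells with drug went from 4 to 7 and the genotype difference of the radiation effect with drug from 1 to 3. With no filter on low counts, E79Q against WT after radiation went from 2 to 1, the genotype difference of the radiation effect with drug from 1 to 2, and radiation by drug in WT cells from 3 to 1. With the compared groups alone, E79Q against WT went from 2 to 4 after radiation and from 2 to 0 after both treatments, radiation from 5 to 8 in WT cells without drug and from 4 to 0 in E79Q cells with drug, and the genotype difference of the radiation effect from 1 to 2 without and from 1 to 0 with drug. In that setting the other pathway genes that passed went from 16 to 6 (of them targets from 11 to 5) in E79Q against WT after both treatments and from 21 to 12 (targets from 11 to 5) for radiation in E79Q cells with drug, and over all genes those comparisons went from 1159 to 234 and from 4667 to 1667. Without the 4 libraries, radiation in WT cells without drug went from 5 to 8 and the genotype difference of the radiation effect with drug from 1 to 2. Over all genes, E79Q against WT after radiation went from 1538 to 3081 with the compared groups alone. Radiation in WT cells without drug then went from 2855 to 4322, and to 4313 without the 4 libraries. The genotype difference of the radiation effect went from 201 to 611 without and from 172 to 40 with drug, with the groups alone. With no filter, radiation by drug in WT cells went from 641 to 997. The remaining all-gene counts moved by no more than 1.5 times. The cause of these moves was not tested.

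Leaving out 1 library gave 1 to 1 in E79Q against WT after radiation (TGFBR2 lost each time). It gave 2 to 5 for radiation in E79Q cells with drug (2 without replicate 3 of E79Q cells with CB-839). For radiation in E79Q cells without drug it gave 4 to 6 (4 without replicate 3 of irradiated E79Q cells). For radiation by drug in WT cells it gave 1 to 3. Without replicate 1 of E79Q cells with both treatments, the genotype difference of the radiation effect with drug reached up to 3 (otherwise 1). That of the drug effect in irradiated cells then reached 1 (otherwise 0), and over all genes it went from 305 to 545. Over all genes, radiation by drug in WT cells went from 641 to 363 without replicate 2 of WT cells with CB-839.

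The replicate numbers did not pair the libraries (4 of 24 libraries correlated best with one of their own number). With the replicate number as a block, 2 calls were lost, SMAD7 for radiation by drug in WT cells (0.39, adjusted p = 0.0577) and TGFB2 for the same in E79Q cells (-0.33, adjusted p = 0.0629); no other call of the 10 genes changed.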
